A study of Rattus norvegicus with 24 samples.

Results

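Expression of the synaptic vesicle release machinery was examined in thoracic propriospinal (TPS) neurons of the rat after spinal transection. The set was named by 36 gene symbols, of which 35 had a probe with 1 gene symbol in the platform annotation, and all 35 lay above the filter on low values. They stand among 14324 named genes and 27342 probes on the array. 1 probe served each gene, and only Stx1a had a choice of probes, where the probe with the highest mean was taken. Napb was not analysed here.

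All 24 arrays, 1 for each animal, came from female Long Evans rats aged 77 ± 10 days that had received Fluoro-Gold, a retrograde tracer, in the lumbosacral enlargement, so every group carried the label and its surgery. Labelled neurons of the mid thoracic cord were cut out by laser and pooled for each animal. Transected animals, whose cord was cut completely at T9, were collected after injury in groups of 4 at 3 days, 4 at 1 week, 2 at 2 weeks and 2 at 1 month. Uninjured labelled animals made up the 4-day, 2-week and 1-month controls (n = 4 each), named here by the sample labels. The study's group table times these controls at 10 days, 3 weeks and 5 weeks after labelling. It lists no sham-operated animals, so transected animals also differed by a second anaesthesia, a laminectomy at T9 and an antibiotic. These cannot be told apart from the cut. Animals of 3 days and 1 week share the 4-day controls, although those of 1 week were collected 2 weeks after labelling. The comparisons at 2 weeks and 1 month rest on 2 transected animals each.

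Neurotransmitter is released when vesicles filled with transmitter fuse with the membrane of the nerve terminal. SNARE proteins of the vesicle and of the membrane zip together and drive this fusion, complexins clamp and promote it, and synaptotagmins sense the calcium that triggers it. Active zone proteins dock and prime vesicles beforehand, Nsf and its adaptor take spent SNARE complexes apart, and endocytic proteins such as dynamin and endophilin retrieve the vesicle membrane. Propriospinal neurons link spinal segments through long axons. Transection at T9 parts the cut axons from their terminals below the cut, while the mRNA measured here comes from cell bodies.

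The deposited values are linear intensities that the authors had normalized, and all levels below are their log2. Array medians ran from 73.6 to 81.3 in intensity, and correlations between arrays from 0.9642 to 0.9916. The lowest deposited value of 17 occurred 2337 times but for none of the members, so every member lay above that value on every array. The lowest mean log2 levels of the members, 5.93 for Unc13b and 6.24 for Bsn, were near the array medians (log2 6.20 to 6.35). Whether these genes stood above background was not tested. 4-day control 3 stood apart, with a median correlation of 0.9745 with its own group and an array quality weight of 0.3276, and 4-day control 4 had a weight of 0.4769. Results that rest on these controls are given without them below where a call changed. The 24 neuron markers were present throughout, with a mean log2 level of 9.81 to 9.97 over the 4-day controls and 9.68 to 9.93 over the 3-day animals. The 20 microglia and macrophage markers had mean log2 levels of 7.13 to 8.38 and 8.57 to 9.07 in the same groups. The 15 astrocyte markers had 9.66 to 10.47 and 9.80 to 10.08, and the 16 oligodendrocyte and myelin markers 9.67 to 9.94 and 9.68 to 10.06. The arrays thus held signal for glial markers as well as for neurons, also in uninjured animals. No marker of these lists was at the lowest value on any array. In such pooled material, fewer neurons and less RNA in each neuron cannot be told apart.

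In the 12 uninjured arrays, the mean log2 level of the members ran from 5.91 for Unc13b to 12.29 for Snap25, with a median of 9.38. Levels of different probes depend on the probe as well as on the RNA and are given only as a range. Within a gene, the SD over the 12 uninjured arrays ran from 0.05 for Bsn, which encodes the active zone scaffold Bassoon, to 0.40 for Napa, the adaptor α-SNAP that brings Nsf to SNARE complexes. The median SD was 0.16. Snap25, a SNARE protein of the terminal membrane, was among the steadiest at 12.29 ± 0.07 (SD, n = 12), and the vesicle protein synaptophysin (Syp) among the more variable at 9.70 ± 0.30.

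The mean profile of the members, the average over the 35 genes of the log2 level relative to each gene's own uninjured mean, moved by small amounts. The 4-day controls lay at 0.01 ± 0.08 (SD, n = 4) and the 3-day animals at -0.14 ± 0.12, with single 3-day arrays between -0.29 and 0.01. At 1 week the profile stood at -0.02 ± 0.04. The uninjured groups differed from each other as well, with the 2-week controls at -0.13 ± 0.07 and the 1-month controls at 0.12 ± 0.03. The transected animals of 2 weeks (-0.08 ± 0.04, n = 2) and of 1 month (0.12 ± 0.05, n = 2) lay near their own controls. Beside this, the neuron marker profile was -0.03 ± 0.07 in the 4-day controls and -0.12 ± 0.11 at 3 days, and the microglia and macrophage profile was 0.39 ± 0.55 and 1.37 ± 0.23.

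**Figure D1:**
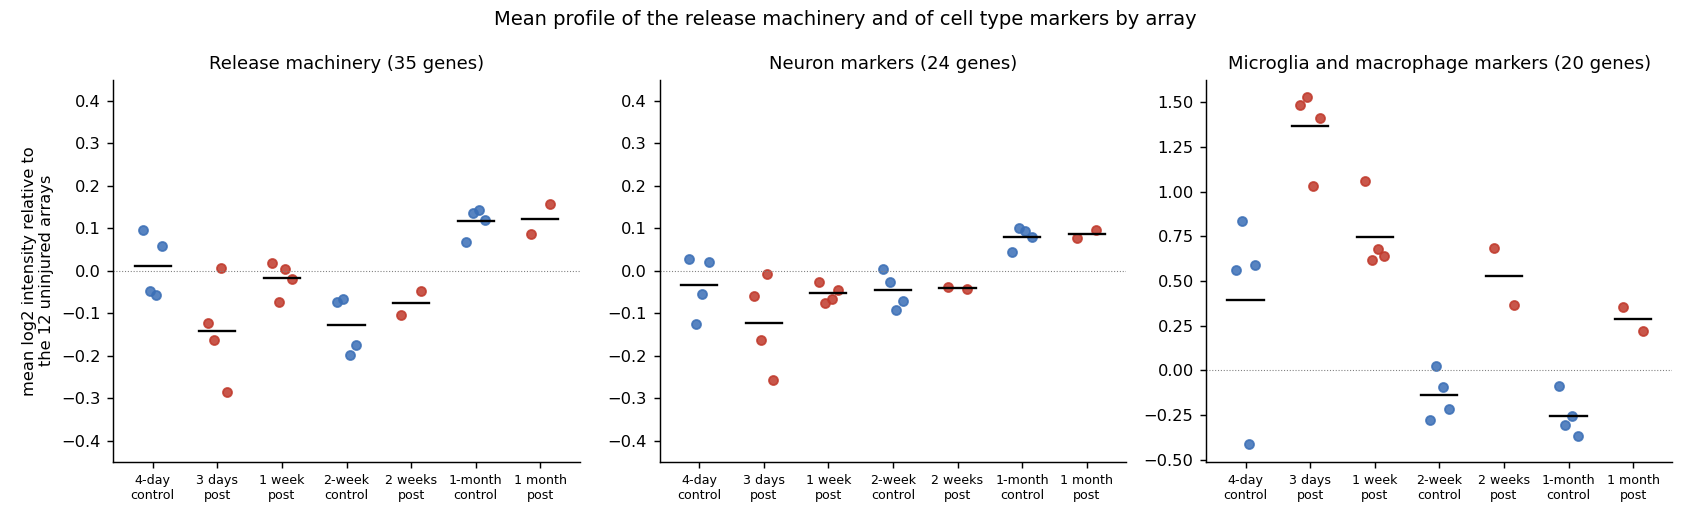
Mean log2 intensity of the 35 release machinery genes, 24 neuron markers and 20 microglia and macrophage markers on each array, relative to each gene's mean over the 12 uninjured arrays (blue points, controls; red points, transected animals; black bars, group means). 3 of the 4 arrays of 3 days lie below all 4-day controls in the left panel, while the fourth lies at 0.01, and the uninjured groups of 2 weeks and 1 month lie at -0.13 and 0.12.

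At 3 days after transection the levels of most members lay under those of the 4-day controls, and 3 passed the test. The log2 difference from the 4-day controls was below 0 for 33 of 35 members and above 0 for 2, Syt4 and Unc13b, with a median of -0.14, while 52.4% of the 23240 probes tested lay below 0 and their median was -0.01. 3 members fell at a Benjamini-Hochberg adjusted p under 0.05 in the limma fit, where 0.886% of all probes were called lower, and no member rose, where 2% of all probes were called higher. They were Rab3c, Sh3gl2 and Amph. With the filter at the median level, 3 of 33 members were called lower, where 1.89% of the probes kept were. With an unadjusted p under 0.05 there were 14 of 35 members, against 14.2% of all probes. The animals were not alike. In the 3-day animals 1, 2 and 4, 28, 29 and 32 members lay below their own uninjured mean, and in animal 3 it was 18.

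**Figure D2:**
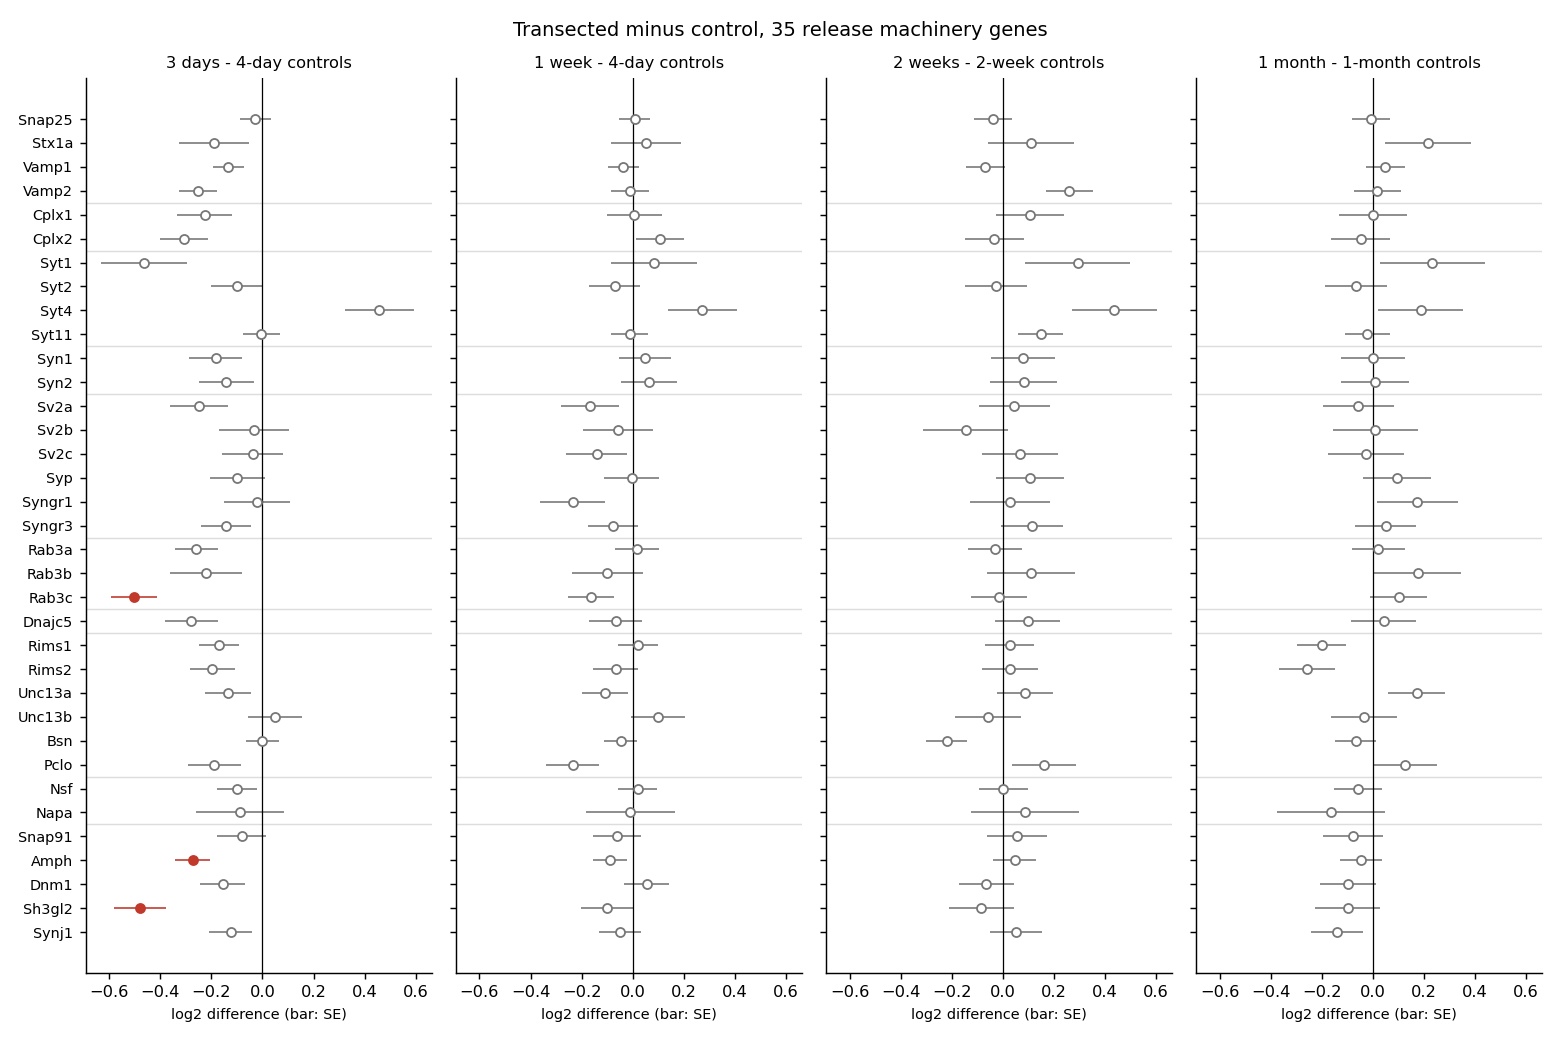
Log2 difference between transected and control animals for the 35 members at 4 times (points, differences; bars, SE of the fit; filled red, adjusted p under 0.05 in the limma fit; open grey, not past it; grey lines part the role groups). At 3 days 33 of 35 points lie left of 0 and 3 are called, and no member is called at the later times.

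Rab3c, a vesicle GTPase of the Rab3 family that guides vesicles to their release sites, had the largest difference of the members. Its log2 level was 10.44, 10.14, 10.27 and 10.31 in the 4-day controls and 9.73, 9.63, 10.09 and 9.70 at 3 days. The groups did not overlap, and animal 3 lay closest to the controls. The difference was -0.50 (SE 0.09, limma adjusted p = 0.00273), a 1.42-fold lower level, and an exact two-sided permutation test gave p = 0.0286, the smallest that 4 against 4 arrays allow. Leaving out any 1 array kept it past the threshold, but it did not pass when only the 2 groups were fitted (limma adjusted p = 0.193) or in the 2-group test with equal variances. Of its relatives, Rab3a was at -0.26 (SE 0.09, limma adjusted p = 0.116) and also without overlap, and Rab3b at -0.22 (SE 0.14).

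Of the 5 vesicle endocytosis genes 2 fell. Sh3gl2 encodes endophilin A, which bends the membrane at the neck of the retrieved vesicle and recruits synaptojanin. It measured 10.43, 10.39, 10.18 and 10.47 in the 4-day controls and 9.82, 9.86, 10.21 and 9.65 at 3 days. 3-day animal 3 reached into the range of the controls, above control 3. The difference was -0.48 (SE 0.10, limma adjusted p = 0.0126), with an exact two-sided permutation p of 0.0571. Without 3-day animal 4 it was -0.40 and no longer past the threshold (limma adjusted p = 0.0525), nor did it pass when only the 2 groups were fitted (limma adjusted p = 0.233).

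Amph, or amphiphysin, which brings dynamin to clathrin-coated pits, measured 9.42, 9.33, 9.37 and 9.57 in the 4-day controls and 9.13, 9.13, 9.23 and 9.12 at 3 days. The groups did not overlap, and the 3-day arrays other than that of animal 3 lay between 9.12 and 9.13. The difference was -0.27 (SE 0.07, limma adjusted p = 0.0297, exact permutation p = 0.0286). The call did not hold without 3-day animal 1, 2 or 4 or without 4-day control 1 or 4, where the limma adjusted p was 0.0762, 0.0837, 0.0833, 0.0626 and 0.0985, while the difference stayed between -0.22 and -0.27, nor when only the 2 groups were fitted (limma adjusted p = 0.303). The other 3 genes of vesicle retrieval did not pass: Dnm1, the GTPase dynamin that severs the vesicle neck, was at -0.16 (SE 0.09), Synj1, the phosphatase that strips the coat, at -0.13 (SE 0.08) and Snap91, a clathrin assembly protein, at -0.08 (SE 0.10).

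**Figure D3:**
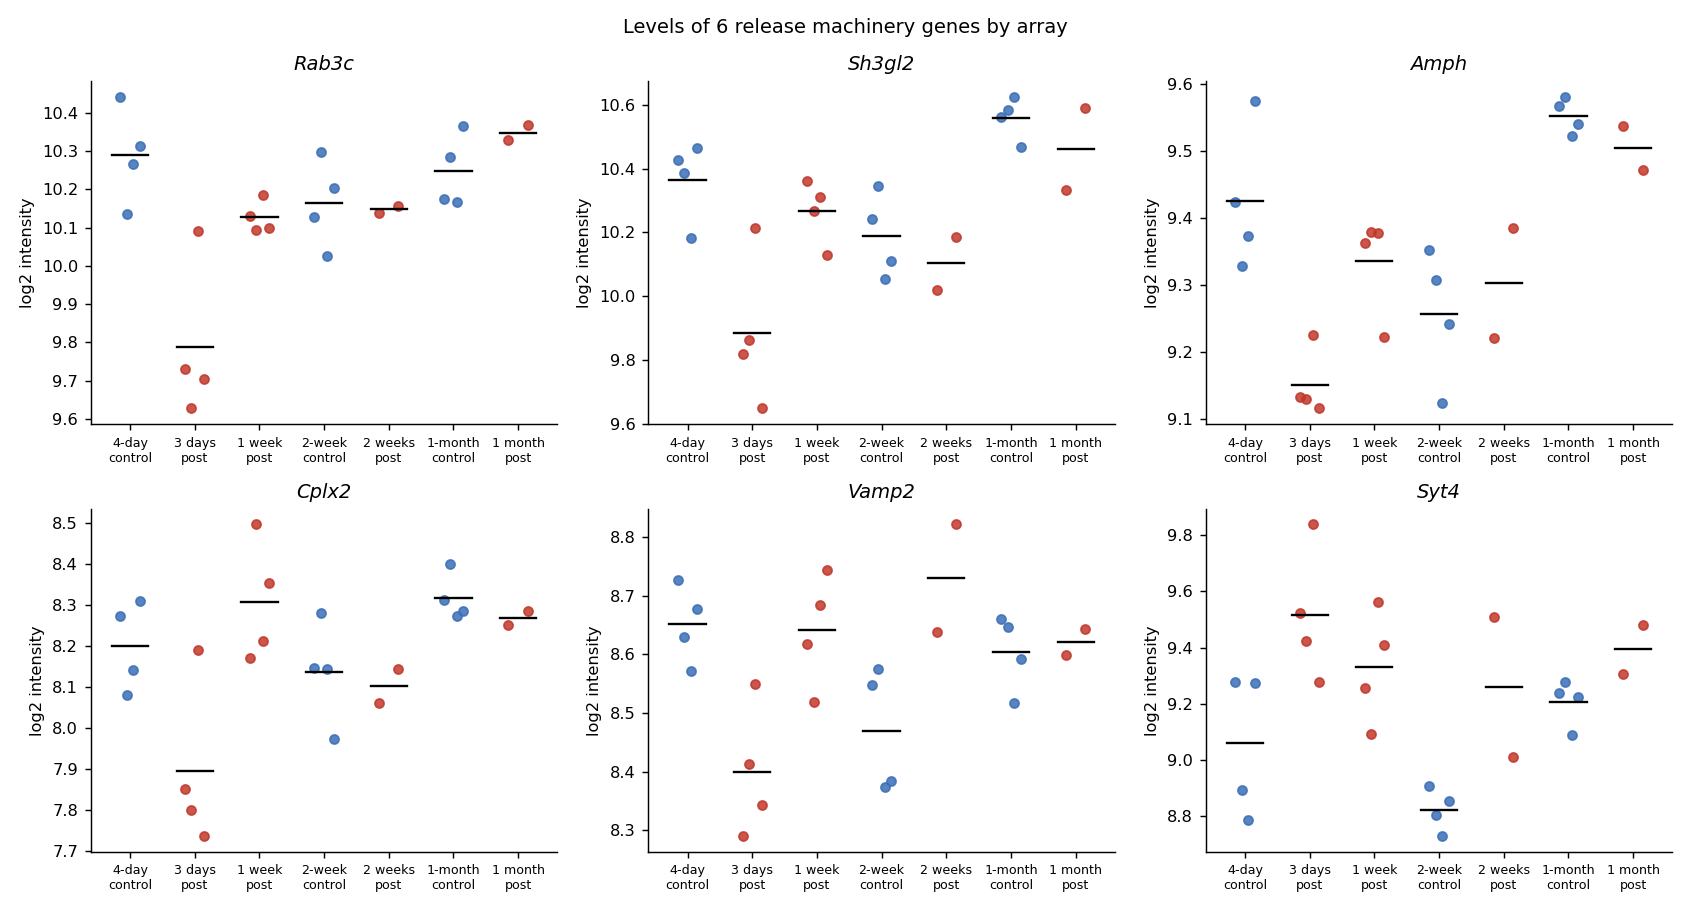
Log2 intensity on each array of 6 members, by group (blue points, controls; red points, transected animals; black bars, group means; the vertical axes differ and do not start at 0). The 3-day arrays of Rab3c and Amph lie below all 4-day controls, those of Sh3gl2 and Cplx2 overlap them through 1 animal, and Syt4 lies higher at 3 days (9.28 to 9.84) than most controls.

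Promoter letters are shown for the 3 members called at 3 days, whichever letters they hold. Windows of 250 bases before the start of transcription in a promoter set (GRCr8) matched 30 of the 35 members and 27457 promoters in all. They were searched on both strands for the cAMP response element TGACGTCA, for AP-1 sites (TGACTCA or TGAGTCA) and for the response element's half-site (TGACG or CGTCA), which the full element contains. From window to RefSeq gene start the distance was 0 bases for Sh3gl2, -82 for Amph and -1283 for Rab3c. A negative value means that the window reaches into the RefSeq gene, and that of Rab3c lies wholly inside it. The full element was in 1.7% of all promoters and in 4 of the 30 member promoters, those of Sh3gl2, Vamp1, Syn1 and Napa. No member promoter held the AP-1 letters, present in 3.98% of all promoters, and the half-site was in 12 of 30 against 19% of all. The windows of Rab3c (chr2:43575944-43576193, minus strand) and Amph (chr17:50678502-50678751, minus strand) hold none of these letters and stand in lower case throughout, and that of Sh3gl2 (chr5:104699020-104699269, plus strand) has the full element in capitals. A match describes letters and not a bound site.
Rab3c: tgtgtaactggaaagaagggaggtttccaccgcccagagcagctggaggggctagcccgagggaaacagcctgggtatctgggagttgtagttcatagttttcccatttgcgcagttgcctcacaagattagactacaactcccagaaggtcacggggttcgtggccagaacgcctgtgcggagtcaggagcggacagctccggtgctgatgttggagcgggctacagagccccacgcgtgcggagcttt
Sh3gl2: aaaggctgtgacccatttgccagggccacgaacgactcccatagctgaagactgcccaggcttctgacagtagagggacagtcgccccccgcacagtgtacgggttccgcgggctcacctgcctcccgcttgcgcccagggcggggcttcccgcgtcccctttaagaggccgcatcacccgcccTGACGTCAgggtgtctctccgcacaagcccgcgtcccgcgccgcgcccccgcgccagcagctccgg
Amph: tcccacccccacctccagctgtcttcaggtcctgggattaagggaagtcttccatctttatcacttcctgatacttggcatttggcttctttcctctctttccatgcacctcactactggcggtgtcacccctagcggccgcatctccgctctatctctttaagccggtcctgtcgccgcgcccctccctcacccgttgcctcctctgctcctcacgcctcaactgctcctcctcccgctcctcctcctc

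The 4 SNARE genes all lay below 0 at 3 days, and none passed the test. Vamp2, the vesicle SNARE synaptobrevin, was at 8.73, 8.63, 8.57 and 8.68 in the 4-day controls and at 8.29, 8.41, 8.55 and 8.34 at 3 days, with no overlap (difference -0.25, SE 0.07, limma adjusted p = 0.0708). Vamp1, a second synaptobrevin, was at -0.13 (SE 0.06), Stx1a, the syntaxin of the terminal membrane, at -0.19 (SE 0.14) and Snap25 at -0.03 (SE 0.06). In all, the groups lay apart without overlap for 4 members, each of them lower (Rab3c, Amph, Vamp2 and Rab3a), where 2.76% of all probes did so downward.

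Both complexins, small proteins that hold assembled SNARE complexes ready for calcium, lay below 0. Cplx2 was at 8.27, 8.08, 8.14 and 8.31 in the 4-day controls and at 7.85, 7.80, 8.19 and 7.74 at 3 days. Animal 3 again lay within the controls, and the difference of -0.31 (SE 0.10, limma adjusted p = 0.0883) did not pass. Without that animal, Cplx2 was at -0.40 (limma adjusted p = 0.00855), Vamp2 at -0.30 (limma adjusted p = 0.0254) and 6 members were called lower, as 1.65% of all probes were in that fit. Cplx1 was at -0.23 (SE 0.11), and without 4-day control 3 it stood at -0.35 (limma adjusted p = 0.045) and the vesicle chaperone Dnajc5 at -0.37 (limma adjusted p = 0.049), with 5 members called lower and 1.17% of all probes. Without 3-day animal 4, 1 member was called lower and 0.478% of all probes.

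The synaptotagmins did not share a direction. Syt4, a synaptotagmin without the usual calcium binding that sits on peptide vesicles and is induced by activity in rat neurons, was at 9.28, 8.89, 8.79 and 9.28 in the 4-day controls and at 9.52, 9.42, 9.84 and 9.28 at 3 days. The highest control and the lowest 3-day animal both stood at 9.28. The difference was 0.46 (SE 0.13) and did not pass (limma adjusted p = 0.0717). It did pass, as the only member called higher, after cyclic loess (0.49, limma adjusted p = 0.0366) and with the 12 uninjured arrays pooled (0.49, limma adjusted p = 0.0139). Syt1, the main calcium sensor of fast release in the forebrain, was at -0.46 (SE 0.17, limma adjusted p = 0.171), with 9.81, 9.44, 10.11 and 10.02 in the controls and 9.71, 9.28, 9.69 and 8.85 at 3 days, so its mean leaned on animal 4. Syt2, the fast sensor of the hindbrain and spinal cord, was at -0.10 (SE 0.10) and Syt11 at -0.01 (SE 0.07).

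Vesicle membrane proteins and synapsins were all below 0 and none passed. Sv2a, a vesicle glycoprotein that binds the drug levetiracetam, was at -0.25 (SE 0.11), its relatives Sv2b and Sv2c at -0.03 (SE 0.14) and -0.04 (SE 0.12), and Syp at -0.10 (SE 0.11). The synaptogyrins Syngr1 and Syngr3 were at -0.02 (SE 0.13) and -0.14 (SE 0.10). Syn1 and Syn2, which tether vesicles to actin, were at -0.18 (SE 0.10) and -0.14 (SE 0.11). Among active zone and priming genes, Rims1 and Rims2, scaffolds that bind Rab3, were at -0.17 (SE 0.08) and -0.20 (SE 0.09), Pclo (Piccolo) at -0.19 (SE 0.10) and the priming factor Unc13a at -0.14 (SE 0.09), while Unc13b was at 0.05 (SE 0.11) and Bsn at 0.00 (SE 0.07). Nsf, the ATPase of SNARE disassembly, was at -0.10 (SE 0.08) and Napa at -0.09 (SE 0.17).

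Other genes of the pathway were counted from lists that hold no member. Of 50 other release genes, 34 lay below 0 at 3 days and 2 fell, Lin7b, a scaffold of the presynaptic Cask complex (-0.72, SE 0.11, limma adjusted p = 0.000577), and Rph3a, rabphilin, which binds Rab3 (-0.43, SE 0.10, limma adjusted p = 0.0169). Of 29 other endocytosis genes, 2 rose, the endocytic adaptor Ston1 (1.23, SE 0.21) and Sh3glb1 (0.27, SE 0.07), and 1 fell, the endophilin Sh3gl3 (-0.35, SE 0.09). None of the 17 genes of the vesicle proton pump passed, and 11 of them lay below 0.

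Markers of cell types moved at the same time. Of 24 neuron markers 18 lay below 0 with a median of -0.11, close to the -0.14 of the members, and 2 fell (Ina, -0.37, and Rbfox3, -0.40) while 2 rose (Tubb3, 0.34, and Gap43, 0.28). All 20 microglia and macrophage markers lay above 0, 11 of them called, with a median of 0.92, and Fcgr2b, C1qb and Itgam were at 1.66, 1.19 and 1.77. Of 15 astrocyte markers 3 fell (Slc6a11, Kcnj10 and Gjb6, at -1.34, -0.89 and -0.45), and Gfap, at 0.91 (SE 0.37), did not pass. Of 16 oligodendrocyte and myelin markers 3 rose (Cldn11, Aspa and Tf, at 0.78, 0.59 and 0.38) and 1 fell (Gpr37, -0.66). Of 12 endothelial and vessel markers 1 rose (Tagln, 2.33), and of 12 lymphocyte and neutrophil markers 1 rose (Cd4, 1.25). Their part in the lower release machinery levels was not tested. 3-day animal 3, whose Rab3c, Sh3gl2 and Cplx2 levels lay nearest the controls, had a microglia and macrophage profile of 1.03, and the other 3-day animals had profiles of 1.41 to 1.53. Its array also had the lowest quality weight of the 3-day arrays, 0.6156 where the others had 0.7221 to 1.34. Its median correlation with its own group was 0.9817, where the others had 0.9835 to 0.9861. The part of array quality was not tested either.

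Between 3 days and 1 week the transected arrays were compared directly, without controls. The 3-day level was lower for 28 of 35 members (53.5% of all probes) with a median log2 difference of -0.10, and 2 were called lower, against 0.542% of all probes. Cplx2 measured 8.17, 8.50, 8.21 and 8.35 at 1 week, above all 3-day arrays but that of animal 3 (8.19), a difference of -0.41 (SE 0.10, limma adjusted p = 0.0207). Rab3c measured 10.13, 10.09, 10.19 and 10.10 at 1 week, above the 3-day arrays, although animal 3 and the lowest 1-week animal both round to 10.09 (-0.34, SE 0.09, limma adjusted p = 0.0477). Exact two-sided permutation p was 0.0571 for Cplx2 and 0.0286 for Rab3c.

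Both calls were near the threshold. Rab3c lost it without any 1 of the 7 arrays other than that of 3-day animal 3, with limma adjusted p from 0.0837 to 0.182, and Cplx2 without 3-day animal 1, 2 or 4 or 1-week animal 2 or 5, with adjusted p from 0.056 to 0.0866. Without 3-day animal 3, 6 members were called lower (1.04% of all probes), including Sh3gl2 (-0.49, limma adjusted p = 0.00465) and Vamp2 (-0.29, limma adjusted p = 0.0366). With the replicate number as a block, neither passed (limma adjusted p = 0.0725 for Cplx2 and 0.12 for Rab3c).

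At 1 week no member passed against the 4-day controls, and limma called 0% of all probes. 22 members lay below 0 (50.2% of all probes) and 13 above with a median of -0.04. 28 of 35 were closer to the controls than at 3 days, a count not set beside all probes here. Both comparisons share the 4-day controls, and 14.2% of all probes had an unadjusted limma p under 0.05 at 3 days. The member with the smallest p below 0 was Pclo, at 8.63, 8.49, 8.52 and 8.58 at 1 week and 8.82, 8.68, 8.92 and 8.73 in the controls, the only member whose groups did not overlap (-0.24, SE 0.10), where 1.04% of all probes lay apart downward. Above 0 it was Syt4, at 9.26, 9.09, 9.56 and 9.41 (0.27, SE 0.13), which overlapped the controls. Syngr1 measured 6.75, 6.62, 6.50 and 6.82 against 7.12, 6.93, 7.08 and 6.50 (-0.24, SE 0.13). Cplx2, at 8.17, 8.50, 8.21 and 8.35, was at 0.11 (SE 0.10) above controls of 8.27, 8.08, 8.14 and 8.31. Rab3c, Sh3gl2 and Amph were at -0.16, -0.10 and -0.09, and the adjusted p of every member was 0.999. 1 member, Pclo, had an unadjusted p under 0.05, where 4.44% of all probes did.

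At 2 weeks, with 2 transected animals, no member or other probe passed (0% called) and 24 of 35 members lay above 0 (49.5% of all probes) with a median of 0.05. Against the 12 uninjured arrays pooled, the direction turned, with 26 members below 0, 9 above and a median of -0.10. Syt4 was at 9.51 and 9.01 against 8.91, 8.80, 8.73 and 8.85 in the 2-week controls (0.44, SE 0.16), and Vamp2 at 8.64 and 8.82 against 8.55, 8.58, 8.37 and 8.38 (0.26, SE 0.09). Bsn was at 6.15 and 6.06 against 6.34, 6.34, 6.34 and 6.27 (-0.22, SE 0.08). These 3 members lay apart from the controls, as did Syt11 upward, where 9.9% of all probes lay apart upward and 7.82% downward. The smallest limma adjusted p was 0.801, and 3 members had an unadjusted p under 0.05 (5.29% of all probes). Vamp1, the second smallest p below 0, was at 11.12 and 11.26 against 11.30, 11.34, 11.25 and 11.14 (-0.07, SE 0.08). Sh3gl2, at 10.02 and 10.19, lay within its controls (10.24, 10.34, 10.05 and 10.11) but for the lower animal.

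At 1 month no member passed (0% of all probes called), 16 members lay above 0 and 19 below (54.2% of all probes). The active zone scaffolds Rims1 and Rims2 had the smallest p. Rims1 was at 9.03 and 8.94 against 9.18, 9.23, 9.21 and 9.13 in the 1-month controls (-0.20, SE 0.10), and Rims2 at 7.24 and 7.25 against 7.43, 7.68, 7.56 and 7.36 (-0.26, SE 0.11). Both lay below all their controls, as 7.55% of all probes did, their limma adjusted p was 1, and they were the 2 members with an unadjusted p under 0.05 (3.44% of all probes). Above 0, Unc13a was at 7.14 and 7.29 against 6.99, 7.06, 7.14 and 6.99 (0.17, SE 0.11), and Stx1a at 6.79 and 6.65 against 6.66, 6.56, 6.46 and 6.34 (0.22, SE 0.17). Unc13a and Syt4 (9.31 and 9.48 against 9.24, 9.28, 9.09 and 9.22) lay above their controls, as 5.93% of all probes did, and neither passed the test.

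Over the 4 times together, the average of the 4 differences had a median of -0.03 over the members, with 26 below 0 (53.2% of all probes) and 9 above. 6 had an unadjusted p under 0.05 (8.87% of all probes), and none was called, where 0.37% of all probes were called higher and 0.0344% lower. Syt4 was the only member above 0 at every time, with an average of 0.34 (SE 0.08, limma adjusted p = 0.0869). Without 2-week animal 4 it was 0.40 (limma adjusted p = 0.037). Sh3gl2, Syt2 and Bsn lay below 0 at every time, with Bsn at 0.00 after rounding at 3 days. The differences at 3 days and at the later times against their own controls were also set against each other. No member passed between 3 days and 2 weeks (median -0.22) or between 3 days and 1 month (median -0.18), and limma called 0.0904% of all probes in each. 30 of 35 and 27 of 35 members lay below 0, where 50.2% and 48.2% of all probes did, and 8 and 6 members had an unadjusted p under 0.05, where 6.98% and 7.22% did.

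More members were called between uninjured groups than between transected animals and controls. Between the 2-week and the 1-month controls, 31 of 35 members were higher at 1 month (42.7% of all probes), with a median log2 difference of 0.26 while the median of all probes was -0.05. 13 members rose, against 6.18% of all probes called higher, and none fell, where 4% of all probes were called lower. With the filter at the median level, 18 of 33 members rose, where 12.8% of the probes kept were called higher. The groups lay apart upward for 21 members, as they did for 10.6% of all probes. The members called came from 7 of the 10 role groups.

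Napa had the largest difference, with 7.68, 7.42, 7.16 and 7.69 in the 2-week and 8.08, 8.24, 8.32 and 8.30 in the 1-month controls (0.75, SE 0.17, limma adjusted p = 0.0137). Its partner Nsf was at 10.68, 10.77, 10.57 and 10.62 against 10.86, 10.96, 11.08 and 10.95 (0.30, SE 0.08). Neither overlapped. Of the vesicle proteins, Syp was at 9.56, 9.60, 9.23 and 9.09 against 9.79, 9.88, 9.97 and 10.00 (0.54, SE 0.11, limma adjusted p = 0.008), and Sv2a at 9.32, 9.53, 9.18 and 9.21 against 9.70, 9.88, 9.93 and 9.81 (0.52, SE 0.11). Dnajc5, the cysteine string protein that keeps Snap25 folded, was at 8.88, 9.14, 9.07 and 9.13 against 9.61, 9.65, 9.48 and 9.53 (0.51, SE 0.10). These 3 genes rose 1.45-, 1.43- and 1.43-fold, with every 1-month array above every 2-week array.

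Of the endocytic genes 4 rose. Sh3gl2 was at 10.24, 10.34, 10.05 and 10.11 in the 2-week and 10.56, 10.58, 10.63 and 10.47 in the 1-month controls (0.37, SE 0.10), and Amph at 9.35, 9.31, 9.12 and 9.24 against 9.57, 9.58, 9.52 and 9.54 (0.30, SE 0.07). These were the 2 genes also called at 3 days, and the 1-month controls had the highest mean of the 7 groups for both. Dnm1 was at 10.06, 10.09, 9.87 and 9.83 against 10.25, 10.39, 10.40 and 10.36 (0.39, SE 0.09), and Snap91 at 9.77, 9.69, 9.45 and 9.74 against 9.86, 9.95, 10.06 and 10.11 (0.33, SE 0.10). All 4 lay apart, and the 1-month arrays of Amph were within 9.52 to 9.58. In fusion and calcium sensing, Vamp1 was at 11.30, 11.34, 11.25 and 11.14 against 11.49, 11.52, 11.56 and 11.51 (0.26, SE 0.06). Cplx1 was at 10.32, 10.47, 10.15 and 10.13 against 10.65, 10.68, 10.64 and 10.61 (0.38, SE 0.11). For both genes the 1-month arrays were close together, within 11.49 to 11.56 and 10.61 to 10.68. Syt2 was at 9.72, 9.67, 9.54 and 9.56 against 9.93, 10.18, 10.08 and 9.88 (0.40, SE 0.10), and Syt11 at 10.35, 10.40, 10.23 and 10.26 against 10.59, 10.58, 10.59 and 10.48 (0.25, SE 0.07). None of the 13 overlapped.

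The 4-day controls lay between the other uninjured groups for all 13 of these genes. Against them the 2-week controls were lower for 29 of 35 members (median -0.13, 44.8% of all probes) and the 1-month controls higher for 28 (median 0.12, 47.2% of all probes). No member passed in limma in either comparison, where 0% and 0.0043% of all probes did. Unadjusted p under 0.05 was found for 11 and 6 members, and for 14.3% and 13.2% of all probes. Without 4-day control 3, the array that stood apart, 4 members were called lower in the 2-week controls, Cplx1, Sv2a, Syp and Dnajc5, with differences of -0.42 to -0.55, where 3.81% of all probes were, and without 2-week control 2 there were 2, Syp and Dnajc5, where 0.641% were. All 13 genes also had a 3-day value below the 4-day controls, a comparison that shares those controls.

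**Figure D4:**
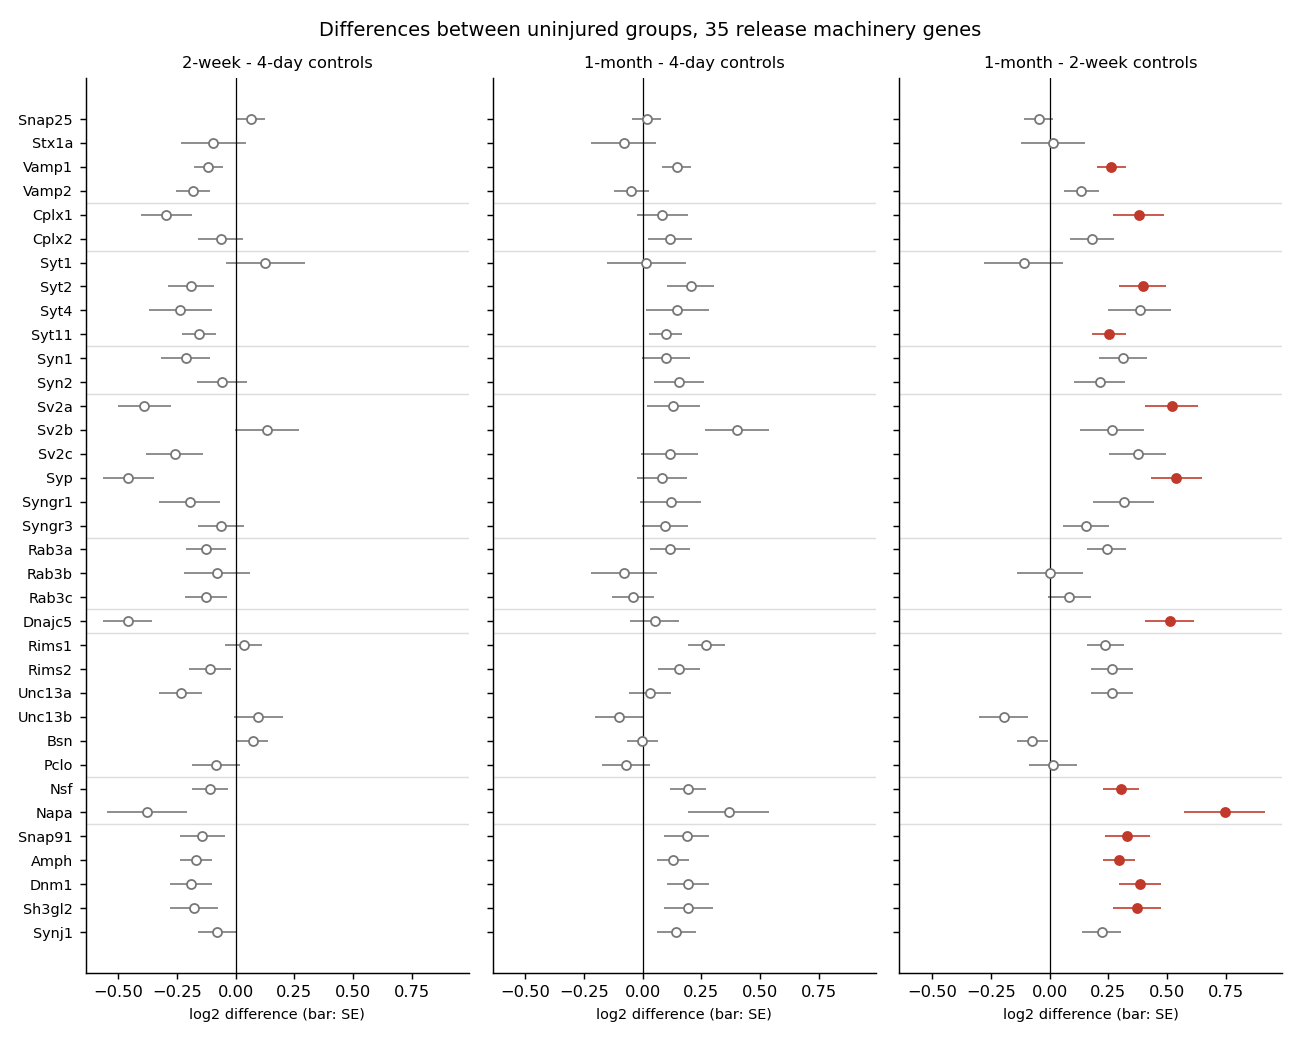
Log2 difference between uninjured groups for the 35 members (points, differences; bars, SE of the fit; filled red, adjusted p under 0.05 in the limma fit; open grey, not past it). The right panel shows 13 called members, all higher in the 1-month than in the 2-week controls, and no member is called in the other panels.

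Genes outside the set also differed between these controls, and the number of calls depended on normalization. Of 17 proton pump genes 17 were higher in the 1-month controls and 7 rose, led by Atp6ap1 (0.53, SE 0.08), and of 29 other endocytosis genes 28 were higher and 12 rose. Of 24 neuron markers 19 were higher and 3 rose (Tubb3, Mapt and Thy1, at 0.35, 0.33 and 0.24), and all 15 astrocyte markers were higher with 7 called and a median of 0.36. The astrocyte profile was -0.28 ± 0.22 in the 2-week and 0.14 ± 0.09 in the 1-month controls. The part of these markers in the difference was not tested. When the log2 values were normalized again by quantiles, 5 members and 2.47% of all probes were called higher and the median was 0.17. With cyclic loess it was 4 members and 2.58%, with a median of 0.16, and 28 of 35 were still higher under both. Leaving out 2-week control 3 left 4 calls (2.01% of all probes called higher), 1-month control 2 or 3 left 8 (3.66%) or 7 (3.52%), and 2-week control 2 gave 17 (6.59%). The groups differ in time after labelling, and the hybridization batch of each array is not given in the sources used here.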

How the data were processed

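RNA of laser-cut neurons was amplified and hybridized to Affymetrix Rat Gene ST arrays. The deposited values are intensities on a linear scale, which the authors made with RMA (named in the submitters' processing notes, version not given there), and their log2 was taken here. Background and detection calls were not used here, so precision rests on the number of arrays. Of 27342 probes, 15097 had 1 gene symbol, 323 several and 11922 none in the platform annotation. Probes in the lowest 15% by mean log2 (5.05, an intensity of 33.2) were left out, which left 23240.

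All 7 group means were fitted in 1 model with limma 3.58.1 (R 4.3.3). Variances were moderated by empirical Bayes (3.64 prior and 17 residual degrees of freedom), with Benjamini-Hochberg adjustment over the 23240 probes in each comparison. The error in this fit is the spread between animals within groups, pooled over all 7 groups, and not that of the 2 groups compared. For Rab3c, Sh3gl2 and Amph the pooled SD before moderation was 0.12, 0.15 and 0.08. The SD of the 3-day animals was 0.21, 0.24 and 0.05, and that of the 4-day controls 0.13, 0.13 and 0.11. Exact permutation tests of single genes were run in scipy 1.17.1, and tables and plots were made with Python 3.11.15, pandas 2.3.3, numpy 2.4.6 and matplotlib 3.10.9. The members and lists were chosen with earlier results of these data known, and no list was tested as a set. All members may be named. Values on every array of the compared groups are given for members called in any comparison and, where a time called none, for the 2 with the smallest p in each direction. Of other lists, called genes are named by p, at most 5 a list. Alternatives were the replicate number as a block, the omission of single arrays, another filter (none, or the median), moderation with a robust intensity trend, quality weights for arrays, a fresh normalization (quantile, cyclic loess), fits of only the 2 groups in question, controls pooled, probes averaged for a gene, and a 2-group test with equal variances. Same-numbered arrays did not deviate together on average (mean r 0.0215 over 55 pairs, against -0.00631 over 189 others). A mean correlation over whole arrays cannot exclude that a number marks a shared batch, and the fit with the number as a block is given as an alternative.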

Additional observations from a re-analysis of the deposited data

Results flagged for a closer look

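Among 24 members and the mean profile, 125 groups of 4 arrays were examined for a single array far from the others, and 7 were found, where chance gives about 1 in 20. At 3 days these were Dnajc5 in animal 4 (log2 9.07, others 9.27 to 9.31) and Amph in animal 3 (9.23, others 9.12 to 9.13). At 1 week it was Amph in animal 5 (9.22, others 9.36 to 9.38). Among controls they were Syp in 4-day control 1 (10.07, others 9.74 to 9.76), Bsn in 4-day control 2 (6.31, others 6.23 to 6.24) and 2-week control 4 (6.27, others 6.34), and Syt11 in 1-month control 4 (10.48, others 10.58 to 10.59).

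The responses at 3 days and at 1 week differed for Cplx2, by -0.41, and for Rab3c, by -0.34, in the direct limma comparison of the transected arrays.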

How the results depend on the processing

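Over all alternatives no called value changed its sign, and of single-gene values 5196 stayed on their side of the threshold, 45 newly passed it and 76 no longer did. The counts of called members moved as follows. At 3 days, where 3 members were called, the compared groups alone and the 2-group test with equal variances called 0 (0.0043% and 0% of all probes called lower), and pooling the 12 uninjured arrays called 8, of which 7 were lower (3.91% of all probes) and 1, Syt4, higher (5.2%). Over the limma fits the adjusted p ran from 9.3e-05 to 0.193 for Rab3c, from 0.0007 to 0.233 for Sh3gl2, from 0.0202 to 0.303 for Amph and from 0.0139 to 0.359 for Syt4. The 2-group test gave adjusted p of 0.41, 0.45, 0.367 and 0.553 for these genes. Pooling also turned the median at 2 weeks from 0.05 to -0.10 and gave a median of 0.13 at 1 month. For 3 days against 2 weeks the median was -0.035, with 1 member called lower (0.258% of all probes). For 3 days against 1 month it was -0.29, with 2 members called lower (1.52%). Array weights gave 1 call lower for 3 days against 2 weeks (0.0645% of all probes) and 1 for 3 days against 1 month (0.0516%). They gave 4 lower between 2-week and 4-day controls (2.53%) and 22 higher between 1-month and 2-week controls (11.8%). In that last comparison quantile normalization gave 5 higher (2.47%, median 0.17) and cyclic loess 4 (2.58%, median 0.16). Cyclic loess gave medians of -0.15 for 3 days against 2 weeks and 0.041 for 1-month against 4-day controls. For 3 days against 1 week, the compared groups alone called 0 (0.159% of all probes called lower).

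With the replicate block, 0 members were called between 3 days and 1 week, and the number of members called was the same with and without this block in the other 10 comparisons.

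Leaving out 1 array gave 1 to 6 calls at 3 days, 0 to 6 for 3 days against 1 week, 0 to 2 for 3 days against 2 weeks, 0 to 1 for 3 days against 1 month, 0 to 1 for the average, 0 to 4 for 2-week against 4-day controls and 4 to 17 for 1-month against 2-week controls. Shares of all probes moved as well. In the last comparison 6.59% were called higher with 17 members (without 2-week control 2) and 3.52% with 7 (without 1-month control 3). For 3 days against 1 week, 0 members and 0.284% of all probes were called lower without 1-week animal 2. The counts for 3 days against 2 weeks, against 1 month and for the average are not set beside all probes here. The fit on the compared groups alone estimates the spread from fewer arrays, and only from the groups compared. Between 1-month and 2-week controls it called 16 members higher (7.87% of all probes), where the main fit called 13 (6.18%). The cause of the moves between settings was not tested. The medians at 2 weeks and 1 month rest on 2 transected arrays each, and that at 1 month ran from -0.02 to 0.04 when 1 array was left out.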
